A study of Mus musculus with 8 samples.

Results

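Corticosteroids act through 2 related nuclear receptors, the glucocorticoid receptor, encoded by Nr3c1, and the mineralocorticoid receptor, encoded by Nr3c2. The unbound receptor is held in a complex of chaperones in the cytoplasm, and once it has bound hormone it moves to the nucleus and binds response elements near its target genes. In the lung, glucocorticoids damp inflammation and drive maturation of the alveolar epithelium, and 11-beta-hydroxysteroid dehydrogenase type 1, encoded by Hsd11b1, regenerates the active hormone inside the cell. The genes described here are these receptors, this enzyme and 5 genes that glucocorticoids are known to induce: Fkbp5, a co-chaperone that lowers the receptor's affinity for hormone; Tsc22d3, which encodes the anti-inflammatory protein GILZ; Zbtb16, which encodes the transcription factor PLZF; Sgk1, a kinase that also serves mineralocorticoid control of sodium transport; and Errfi1, an inhibitor of the epidermal growth factor receptor. They are 8 of the 33027 genes in the count matrix, found by symbol.

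The lungs came from Sftpc-CreERT2-mTmG mice on the C57BL/6 strain, 4 exposed to cigarette smoke (CS) and 4 kept in room air (RA). Littermates of both groups were given tamoxifen at 8 to 10 weeks of age, and 2 weeks later the CS mice began smoke exposure of 6 h per day on 5 days per week for 10 months. The Sftpc promoter drives the Cre recombinase, so the green reporter marks alveolar type 2 (AT2) cells and their descendants and bears on none of the genes below. Right lungs were digested 1 day after the last exposure, and the cells were sorted on CD45 and remixed to 10% CD45+ and 90% CD45- cells before 3' single-cell sequencing, so the shares of immune and other cells were set by hand. Each of the 4 sequencing lanes held 1 CS and 1 RA mouse.

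The 8 genes were chosen from the measured CS against RA levels of these mice, in which Nr3c2 was higher in 6 cell types and Zbtb16 lower in AT2 cells, so all CS against RA differences of the 8 genes are descriptions. Where limma's fit over all genes called a member, the call is given as a count and supports nothing. A level is the number of transcripts per 10000 transcripts of a cell, averaged over the cells of a type in a mouse, so n counts mice. A difference is the log2 of the level plus 1, CS minus RA, with its standard error (SE) from limma. A gene was called in a cell type when its p value, adjusted over all genes tested in that type by the Benjamini-Hochberg method, was under 0.05. A mouse entered a type with 20 or more of its cells, and a gene was tested there if 10% or more of the CS or the RA cells held a transcript of it, which left 22 types and 151 of the 176 possible pairs of a member and a type.

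CS libraries held 34417120 to 50439134 transcripts and RA libraries 31882952 to 55485617. Of 29 marker genes, 27 were highest in the cell type they mark. Both CS libraries labelled male (C2 and C5) carried Xist and both labelled female (D2 and D5) carried the Y-linked Ddx3y, while the 4 RA libraries matched their labelled sex. The mismatch is seen in CS libraries alone. Its cause and the group labels themselves were not tested. Of 40909 distinct cell barcodes, 197 occurred in more than 1 library. In the 9 types where a member was called, the summed level of 28 markers of other cell types overlapped between the groups, with Scgb1a1 of club cells the largest in 7 of them and Ace in both capillary types, and 2 single markers were called, Hhip higher in adventitial and Gja5 higher in alveolar fibroblasts. Between 1 and 4 of those 28 markers were at 0 in all mice of a type. The sum ranged widely within groups, in AT1 cells from 17.44 to 83.98 in CS mice and from 7.845 to 56.25 in RA mice. Its overlap therefore cannot show that transcripts from other cell types were alike in the groups.

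Both receptors bind an element made of the hexamer AGAACA, any 3 bases, and TGTTCT, the same hexamer read on the other strand. RefSeq promoter windows of 250 bases before to 50 after a transcript start were given for 6 of the 8 genes, 14 windows in all. The stretches printed here, credited to RefSeq on GRCm38.p6 and shown because 1 holds the full element and the other a hexamer before the most upstream start of Tsc22d3, are the first 100 bases of 2 of these windows. The first is upstream of a start of Sgk1 and is the 1 member window that held the full element. The second held a single hexamer. Capitals mark the matches on either strand.
Sgk1, chr10:21993640-21993739, plus strand: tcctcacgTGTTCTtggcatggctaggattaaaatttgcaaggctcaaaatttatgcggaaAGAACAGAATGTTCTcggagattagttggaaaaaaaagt
Tsc22d3, chrX:140600673-140600772, minus strand: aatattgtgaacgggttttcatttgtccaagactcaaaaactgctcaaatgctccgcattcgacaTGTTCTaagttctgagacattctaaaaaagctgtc
The full element of Sgk1 began 189 bases before the start site. Of all 32851 windows in the genome table, 3 held the full element (0.00913%) and 6233 held the hexamer on either strand (19%), a count that takes in the full element. The hexamer was found in 4 of the 14 member windows, of which the others, not printed, belong to Sgk1. These matches describe letters in these windows and not binding.

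The mineralocorticoid receptor gene Nr3c2 had a higher mean in CS mice in each of the 18 types in which it was tested. It was called higher in 6 of them and lower in none, where 0.712% of all 172262 tests of a gene in a type were called higher. These 6 were 4 endothelial types, adventitial fibroblasts and mesothelium. Of the 15351 genes tested in 1 type or more, 0.013% were called higher in 6 types or more. Many of the 15351 were tested in fewer types than Nr3c2, so such shares, here and below, are not matched for the types tested. CS and RA mice did not overlap in 10 of the 18 types, against 6.01% of all tests, and a higher CS mean in all 18 types was found for 1.81% of the genes tested in the same types. The median difference of Nr3c2 over the types was 0.40, where the median over all genes of a type was at most 0.03. These are the values that chose the genes, and nothing is read from the counts.

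**Figure D1:**
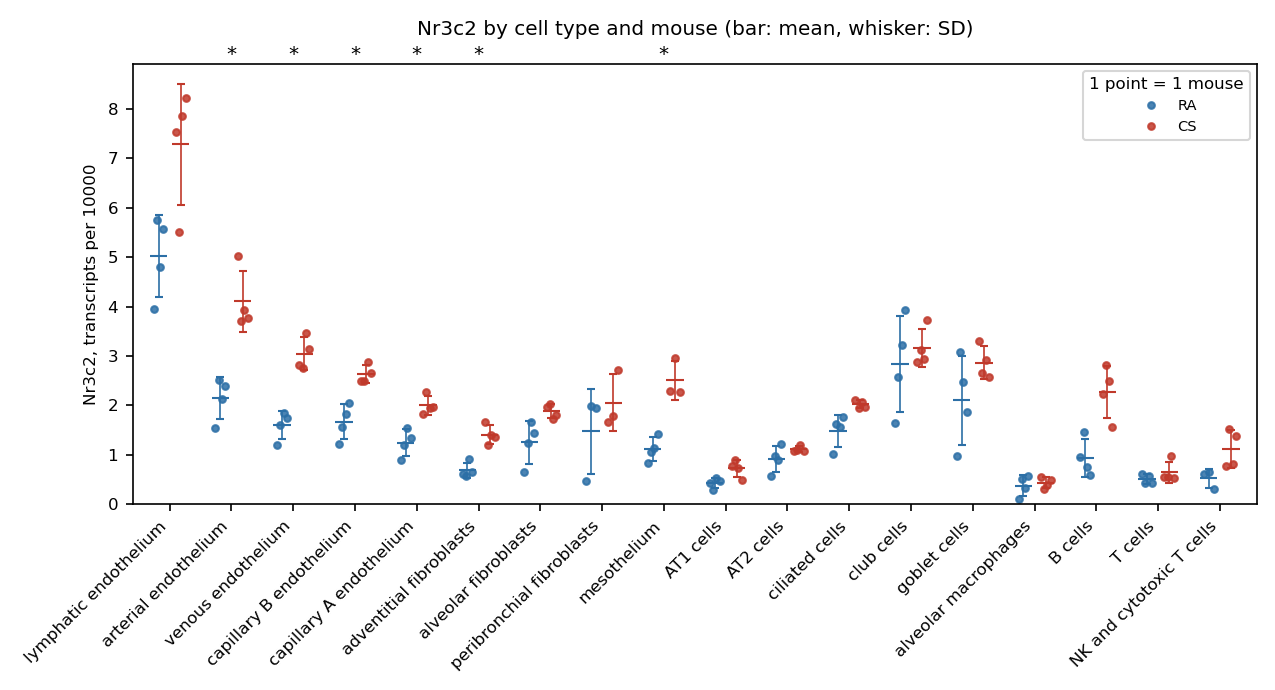
Levels of Nr3c2 (vertical axis, transcripts per 10000) in the 18 cell types in which it was tested (horizontal axis), with 1 point per mouse, RA in blue and CS in red, a bar at the mean, a whisker of 1 SD and an asterisk over types in which the gene was called. In the 6 types with an asterisk every CS point lies above every RA point, and the highest levels are in lymphatic endothelium, where the groups overlap.

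In arterial endothelium, Nr3c2 was at 5.01, 3.71, 3.93 and 3.76 in CS mice C2, C5, D2 and D5 and at 1.55, 2.51, 2.12 and 2.40 in RA mice F1, F3, M1 and M3. The lowest CS mouse lay above the highest RA mouse, and the means were 4.10 ± 0.614 and 2.14 ± 0.431 (SD, n = 4 each), a difference of 0.70 (SE 0.14). Of all genes tested in arterial endothelium 0.341% were called higher. In venous endothelium the CS mice were at 2.81, 2.75, 3.47 and 3.14 and the RA mice at 1.19, 1.60, 1.85 and 1.75, a difference of 0.64 (SE 0.11). F1 was again the lowest mouse, the groups did not overlap, and 0.0649% of all genes were called higher there. The share of arterial cells with an Nr3c2 transcript was 61.7% to 71.4% in CS mice and 39.7% to 60.0% in RA mice.

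The same was seen in both kinds of lung capillary cell. In capillary B endothelium, the general capillary cells that carry Gpihbp1, Nr3c2 was at 2.50, 2.49, 2.88 and 2.66 in CS mice and at 1.22, 1.56, 1.83 and 2.05 in RA mice, a difference of 0.46 (SE 0.10). In capillary A endothelium, the Car4-carrying aerocytes of gas exchange, it was at 1.82, 2.27, 1.95 and 1.96 in CS mice and at 0.884, 1.204, 1.54 and 1.34 in RA mice, a difference of 0.43 (SE 0.09). No CS mouse reached down to the RA range in either type. Calls of higher genes were frequent in capillary B endothelium, 6.28% of all genes tested, against 0.974% in capillary A.

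Outside the endothelium, adventitial fibroblasts held Nr3c2 at 1.65, 1.203, 1.40 and 1.37 in CS mice and at 0.613, 0.576, 0.911 and 0.643 in RA mice, a difference of 0.51 (SE 0.08). Mesothelium, the lining of the lung surface, held it at 2.28, 2.96 and 2.28 in CS mice C5, D2 and D5, C2 having too few of these cells, and at 0.840, 1.04, 1.13 and 1.42 in RA mice, a difference of 0.74 (SE 0.10). The median percent of mitochondrial transcripts per mesothelial cell was 2.39 to 2.82 in these CS mice and 1.97 to 2.35 in RA mice, without overlap, and its part in the result was not tested. The CS mean was 2.05 times the RA mean in adventitial fibroblasts and 2.26 times in mesothelium, types in which 1.91% and 0.072% of all genes were called higher.

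Venous endothelium was the type just inside the threshold for Nr3c2. Just outside it were AT1 cells, at 0.721 ± 0.167 against 0.421 ± 0.106 (SD, n = 4 each), and ciliated cells, at 2.03 ± 0.0775 against 1.49 ± 0.326. B cells had the largest difference, 0.76 (SE 0.15), with 2.23, 2.81, 2.48 and 1.56 in CS mice and 0.948, 1.45, 0.753 and 0.578 in RA mice, and were not called. In B cells limma called 0 of 6244 genes, with 474 higher and 353 lower at an unadjusted p under 0.05. In AT2 cells Nr3c2 was at 1.07, 1.09, 1.201 and 1.07 in CS mice and at 0.577, 0.982, 0.882 and 1.22 in RA mice. There the RA mouse M3 was the highest of all 8, and the difference was 0.15 (SE 0.09).

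Nr3c2 is a long gene, and long genes as a class lay higher in CS mice of these libraries. On GRCm38 (GENCODE) it spans chr8:76899442-77245012 on the plus strand, 345.6 kb from first to last exon. The count matrix sums spliced and unspliced transcripts, so introns contribute to the level. Over genes of at least 150 kb, a limit chosen after the data were seen, the median difference lay above that of all genes in 22 of 22 types, and 2.56% of 14951 tests were called higher and 0.181% lower. In capillary B endothelium 108 long genes were called higher and 0 lower (17.1% of 633), with a median of 0.15 against 0.01 over all genes there. The adventitial fibroblasts were next, with 92 higher and 1 lower.

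Less the median of the other long genes of the same type, the difference of Nr3c2 was 0.57 in arterial and 0.51 in venous endothelium, 0.30 and 0.31 in capillary A and B endothelium, 0.36 in adventitial fibroblasts and 0.67 in mesothelium. Among the types where it was not called, this value was lowest in T cells, at -0.03, where 295 of 509 other long genes lay above Nr3c2. In alveolar macrophages it was 0.04, with 235 of 584 above. The differences of Nr3c2 are those that chose the gene, and the part of gene length or of unspliced transcripts in them was not tested.

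Fewer types were called for Nr3c2 in 7 of the 8 fits with 1 mouse less. The calls went from 6 types to 2, 3, 1 and 2 without CS mouse C2, C5, D2 or D5 and to 3 without RA mouse F3 or M3, while 6 and 4 types were called without F1 and M1. The same fits, which have fewer mice, made 456 to 2170 calls of a gene in a type over all genes, where all mice gave 2118. With lane as a term 2 types were called, and without the gene filter, which tests every gene with a count, 0 were called. Over all genes these fits made 663 and 118 calls.

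The glucocorticoid receptor gene Nr3c1 was called in no type by limma. Its CS mean was higher in 18 of 22 types, which 20.1% of genes tested in all of these types matched or passed, and its differences ran from -0.11 to 0.40. The groups did not overlap in 3 of the 22 types, with CS above in each, against 6.01% of all tests. In alveolar fibroblasts, the type just outside the threshold, Nr3c1 was at 2.44, 2.64, 2.29 and 2.40 in CS mice and at 1.25, 2.04, 1.71 and 1.46 in RA mice, a difference of 0.40 (SE 0.10). Granulocytes, labelled NG and marked by S100a8, gave 3.02 ± 0.397 against 2.04 ± 0.148 and adventitial fibroblasts 1.84 ± 0.355 against 1.17 ± 0.262 (SD, n = 4 each). In AT2 cells the CS mice were at 0.792, 0.864, 0.771 and 0.877 and the RA mice at 0.550, 0.982, 0.854 and 0.956, within which no group stood apart.

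The enzyme gene Hsd11b1 was called in no type. In alveolar fibroblasts, its highest type, it was at 14.5, 14.4, 16.2 and 14.4 in CS mice C2, C5, D2 and D5 and at 30.4, 18.5, 16.8 and 18.9 in RA mice F1, F3, M1 and M3. Every CS mouse was below every RA mouse, narrowly for D2 and M1, and F1 stood well above the other RA mice. The difference was -0.45 (SE 0.16) and was not called. Adventitial fibroblasts had 2.89 ± 0.772 against 3.84 ± 1.53 (SD, n = 4 each) with overlapping groups. Over the 8 types in which Hsd11b1 was tested, its CS mean was lower in 5, as in 42.1% of genes tested in the same types. In AT2 cells it was found in 0% to 4.78% of cells per mouse, too few to be tested.

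Of the induced genes, Tsc22d3 was called lower in 5 types and higher in none, where 0.518% of all tests were called lower. With lane as a term it was called in 2 of these, AT1 cells and alveolar fibroblasts. A lower call in 5 types or more was found for 0.124% of the 15351 genes tested in 1 type or more. Its CS mean was lower in 21 of 22 types, which held for 4.05% of genes tested in all of these types. The groups did not overlap, with CS below, in 8 types, against 4.67% of all tests. The median difference over the types was -0.37. In AT1 cells, the thin cells of the gas-exchange surface, Tsc22d3 was at 1.45, 1.38, 1.68 and 1.59 in CS mice and at 8.02, 4.01, 4.39 and 3.99 in RA mice. The CS mice lay within a narrow band and RA mouse F1 stood far above the other RA mice, and the CS mean was 0.299 of the RA mean, a difference of -1.23 (SE 0.15).

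Alveolar fibroblasts gave the same size of difference. Tsc22d3 was at 1.45, 1.28, 2.18 and 2.08 in CS mice and at 7.39, 3.92, 6.32 and 4.40 in RA mice there, again -1.23 (SE 0.17). In adventitial fibroblasts the CS mice were at 1.12, 0.937, 1.07 and 1.09 and the RA mice at 4.29, 1.95, 1.92 and 2.63, a difference of -0.80 (SE 0.16). RA mouse F1 was the highest in both, and no CS mouse reached the RA range. Of all genes, 0.672% were called lower in alveolar and 1.19% in adventitial fibroblasts.

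In capillary A endothelium Tsc22d3 was at 1.80, 1.30, 2.05 and 1.38 in CS mice and at 3.10, 2.27, 2.698 and 2.77 in RA mice, a difference of -0.50 (SE 0.10). This was the type just inside the threshold. In capillary B endothelium the CS mice were at 1.23, 0.805, 1.47 and 1.25 and the RA mice at 2.16, 1.52, 2.13 and 2.42, a difference of -0.48 (SE 0.11), with CS mouse D2 just under RA mouse F3. In capillary A and B endothelium 0.989% and 3.97% of all genes were called lower. Just outside the threshold, venous endothelium had 1.15 ± 0.175 against 2.13 ± 0.340 (SD, n = 4 each) with no overlap.

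B cells, where the mean of Tsc22d3 over all mice was highest, held it at 4.22, 3.25, 3.53 and 3.14 in CS mice and at 5.49, 4.38, 4.57 and 4.54 in RA mice, without overlap and without a call. AT2 cells showed no such gap in Tsc22d3. Their CS mice were at 0.880, 0.920, 1.07 and 0.867 and their RA mice at 0.876, 0.942, 1.07 and 1.05, fully interleaved, with a difference of -0.04 (SE 0.06).

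**Figure D2:**
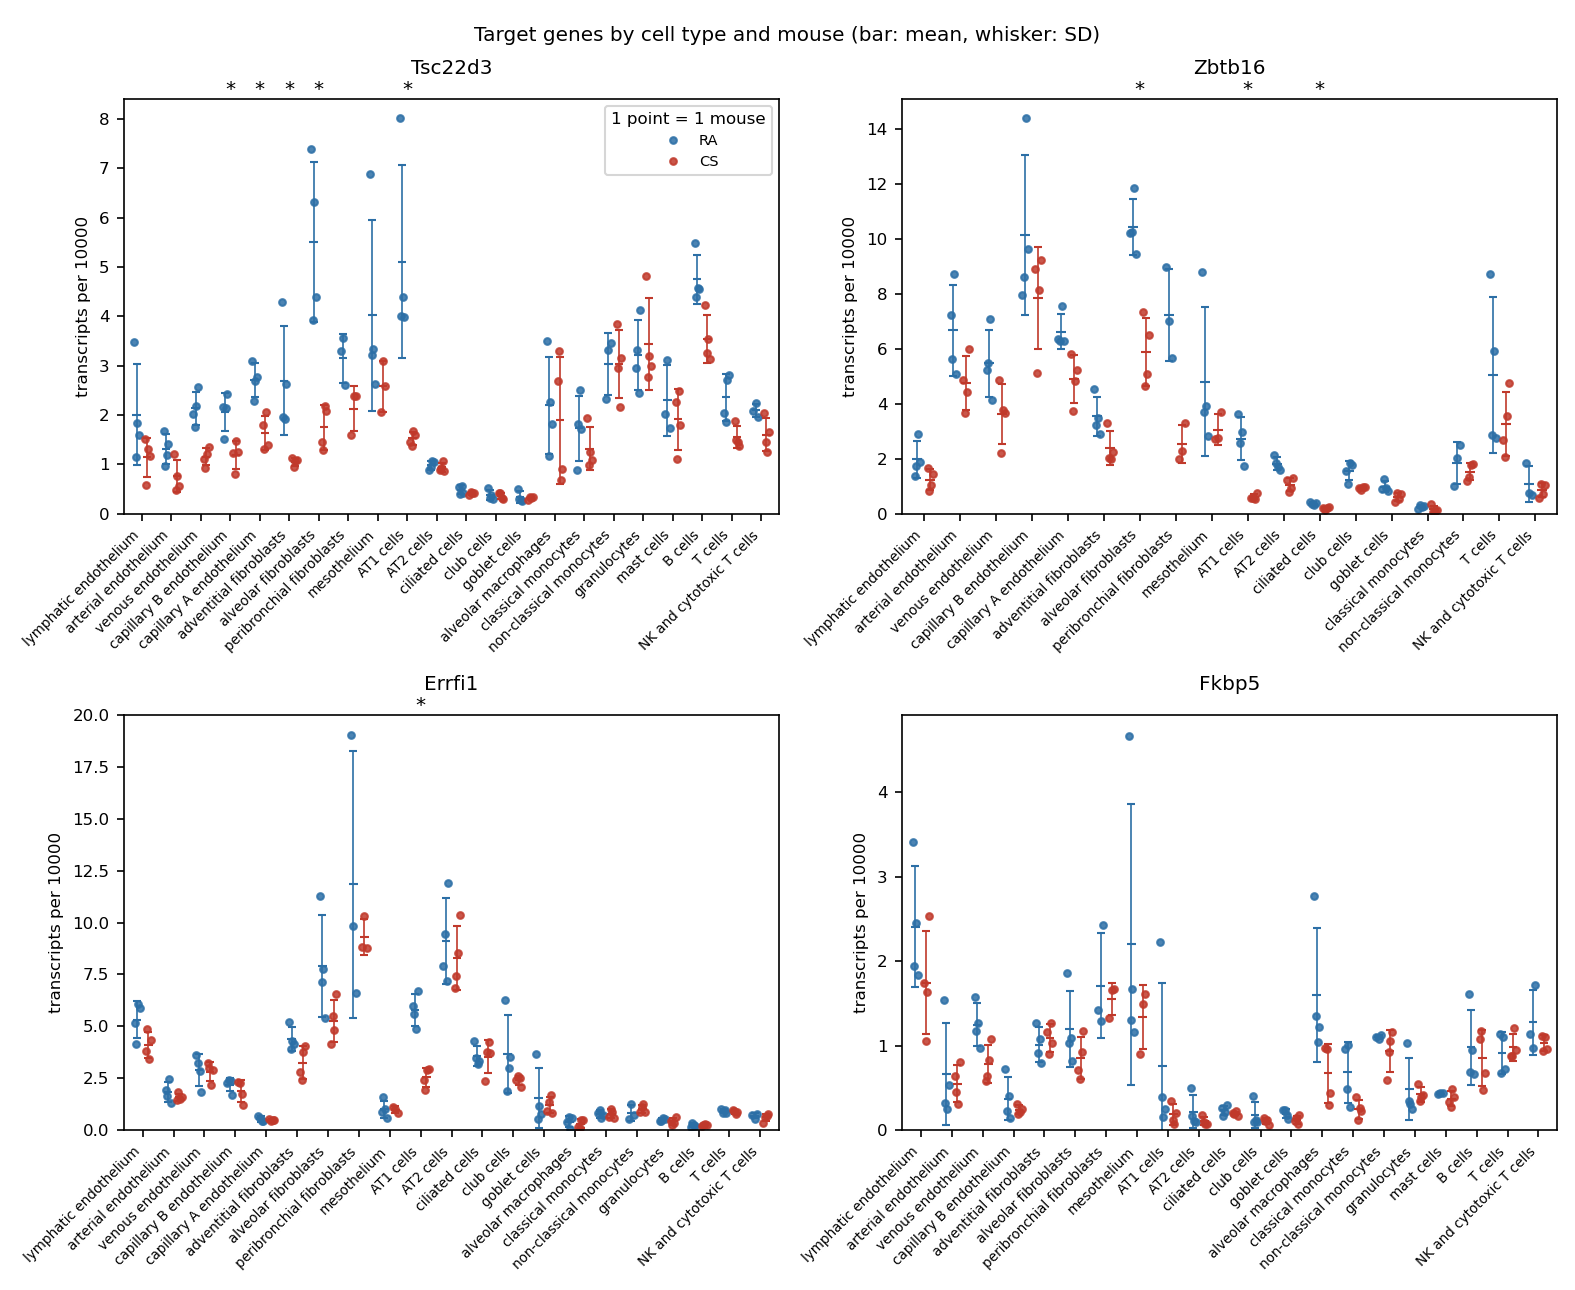
Levels of Tsc22d3, Zbtb16, Errfi1 and Fkbp5 (vertical axes, transcripts per 10000) in the cell types in which each was tested (horizontal axes), with 1 point per mouse, RA in blue and CS in red, a bar at the mean, a whisker of 1 SD and an asterisk over types in which the gene was called. CS points lie below RA points in AT1 cells for Tsc22d3, Zbtb16 and Errfi1, while for Fkbp5 a single RA point stands high in several types and no type was called.

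Zbtb16 was called lower in 3 types and higher in none, and 0.371% of the 15351 genes tested in 1 type or more were called lower in as many or more. With lane as a term it was called lower in AT1 cells, ciliated cells and peribronchial fibroblasts, and no longer in alveolar fibroblasts. In peribronchial fibroblasts that fit held 3 CS and 3 RA mice, and only D2 with F3 and C5 with M1 shared a lane. The CS mean of Zbtb16 was lower in all 18 types in which it was tested, which 2.17% of genes tested in the same types shared. The groups did not overlap, with CS below, in 8 of the 18 types, against 4.67% of all tests. AT1 cells held Zbtb16 at 0.570, 0.586, 0.545 and 0.743 in CS mice and at 3.64, 2.58, 2.96 and 1.74 in RA mice, so that the highest CS mouse was under the lowest RA mouse. The CS mean was 0.224 of the RA mean, a difference of -1.19 (SE 0.12). In CS mice 26.6% to 40.5% of AT1 cells held a Zbtb16 transcript and in RA mice 78.0% to 90.2%.

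Levels of Zbtb16 were highest in capillary B endothelium and alveolar fibroblasts. Alveolar fibroblasts held it at 7.32, 4.65, 5.07 and 6.50 in CS mice and at 10.2, 10.2, 11.9 and 9.44 in RA mice, a difference of -0.74 (SE 0.14) with no overlap. In capillary B endothelium it was at 8.89, 5.13, 8.12 and 9.22 in CS mice and at 7.93, 8.60, 14.4 and 9.60 in RA mice, which overlapped. Ciliated cells, with little of it, had 0.212, 0.119, 0.220 and 0.250 in CS mice and 0.440, 0.353, 0.300 and 0.375 in RA mice, a difference of -0.19 (SE 0.04) with a call, in a type where 1.91% of all genes were called lower.

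In AT2 cells, the type named in the choice of the genes, Zbtb16 was at 1.21, 0.778, 0.923 and 1.30 in CS mice and at 2.15, 1.85, 1.70 and 1.58 in RA mice. The groups did not overlap, the means were 1.05 ± 0.244 and 1.82 ± 0.246 (SD, n = 4 each), and the difference was -0.46 (SE 0.09). It was not called: limma called 0 of 9032 genes in AT2 cells, where 382 were higher and 289 lower at an unadjusted p under 0.05. Peribronchial fibroblasts had a difference as large as AT1 cells, -1.22 (SE 0.23), at 1.99, 2.26 and 3.31 in CS mice C5, D2 and D5 and at 8.98, 7.02 and 5.64 in RA mice F1, F3 and M1, where limma called 0 of 7247 genes (374 higher and 248 lower at an unadjusted p under 0.05).

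Zbtb16 spans 181.9 kb and so belongs to the long genes. The median difference of the other long genes was 0.05 in AT1 cells, 0.12 in alveolar fibroblasts and 0.01 in AT2 cells, beside the values of Zbtb16 given above.

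Errfi1 was called lower in 1 type, as 4.06% of the 15351 genes tested in 1 type or more were in 1 or more. AT1 cells held it at 2.43, 1.95, 2.90 and 2.93 in CS mice and at 5.96, 5.60, 4.85 and 6.69 in RA mice, with no overlap and a difference of -0.93 (SE 0.12). AT2 cells, with more Errfi1, had 6.87, 7.43, 8.55 and 10.4 in CS mice and 7.89, 9.44, 7.19 and 11.9 in RA mice, which were interleaved, a difference of -0.11 (SE 0.16). The highest mean was in peribronchial fibroblasts, at 8.84, 10.3 and 8.79 in CS mice and at 19.1, 9.84 and 6.63 in RA mice, where F1 alone lay above the rest. The CS mean of Errfi1 was lower in 17 of 21 types, as in 18.5% of genes tested in the same types.

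AT1 cells were the type with the most called members, Tsc22d3, Zbtb16 and Errfi1, all lower, where 0.992% of the 8873 genes tested there were called lower. The genes were chosen on these levels, so nothing is read from this count. In AT1 cells the median percent of mitochondrial transcripts per cell was 1.75 to 3.26 in CS mice and 1.33 to 1.71 in RA mice, and the summed level of RNAs kept in the nucleus was 480.8 to 598.5 and 623.4 to 682.9 per 10000, neither with overlap, and their part in the result was not tested. AT2 cells had no called member.

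Fkbp5 was called in no type, although its CS mean was lower in 19 of 21 types, as in 7.88% of genes tested in the same types. In lymphatic endothelium, its highest type, it was at 1.75, 1.06, 1.64 and 2.54 in CS mice and at 3.41, 1.95, 2.45 and 1.84 in RA mice, which overlapped. The groups did not overlap in 1 of the 21 types, against 4.67% of all tests with CS below. This was alveolar macrophages, at 0.978, 0.967, 0.301 and 0.444 in CS mice and at 2.78, 1.35, 1.05 and 1.23 in RA mice, a difference of -0.62 (SE 0.18). In AT2 cells it was at 0.179, 0.0915, 0.0723 and 0.0773 in CS mice and at 0.504, 0.167, 0.103 and 0.0930 in RA mice, where 1 RA mouse was high.

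That mouse was F1 in type after type. Fkbp5 was highest in F1 among the RA mice in 15 of 17 types with 4 RA mice, and in AT1 cells F1 was at 2.23 while the other RA mice were at 0.394, 0.160 and 0.250. F1 was also the highest RA mouse for Tsc22d3 in 11 of 18 types, for Sgk1 in 11 of 17 and for Hsd11b1 in 4 of 6. For Nr3c1 it was the lowest RA mouse in 13 of 18 types and for Nr3c2 in 12 of 16. Without F1, 15 pairs of a member and a type were called as with it, 14 of them in common.

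Sgk1 was called in no type. The groups did not overlap, with CS above, in 1 of 21 types and, with CS below, in 2, against 6.01% and 4.67% of all tests, counts near that background from which nothing is read. In alveolar macrophages, its highest type, it was at 12.2, 8.12, 9.02 and 7.09 in CS mice and at 6.77, 6.74, 6.61 and 6.31 in RA mice, so that every CS mouse lay above every RA mouse, a difference of 0.39 (SE 0.17). T cells were at 0.418, 0.570, 0.484 and 0.299 against 0.603, 0.618, 0.601 and 0.807, a difference of -0.20 (SE 0.07). In AT2 cells it was at 0.183, 0.281, 0.445 and 0.378 in CS mice and at 0.446, 0.366, 0.371 and 0.626 in RA mice, with overlap. The CS mean of Sgk1 was lower in 16 of 21 types, as in 23% of genes tested in the same types.

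**Figure D3:**
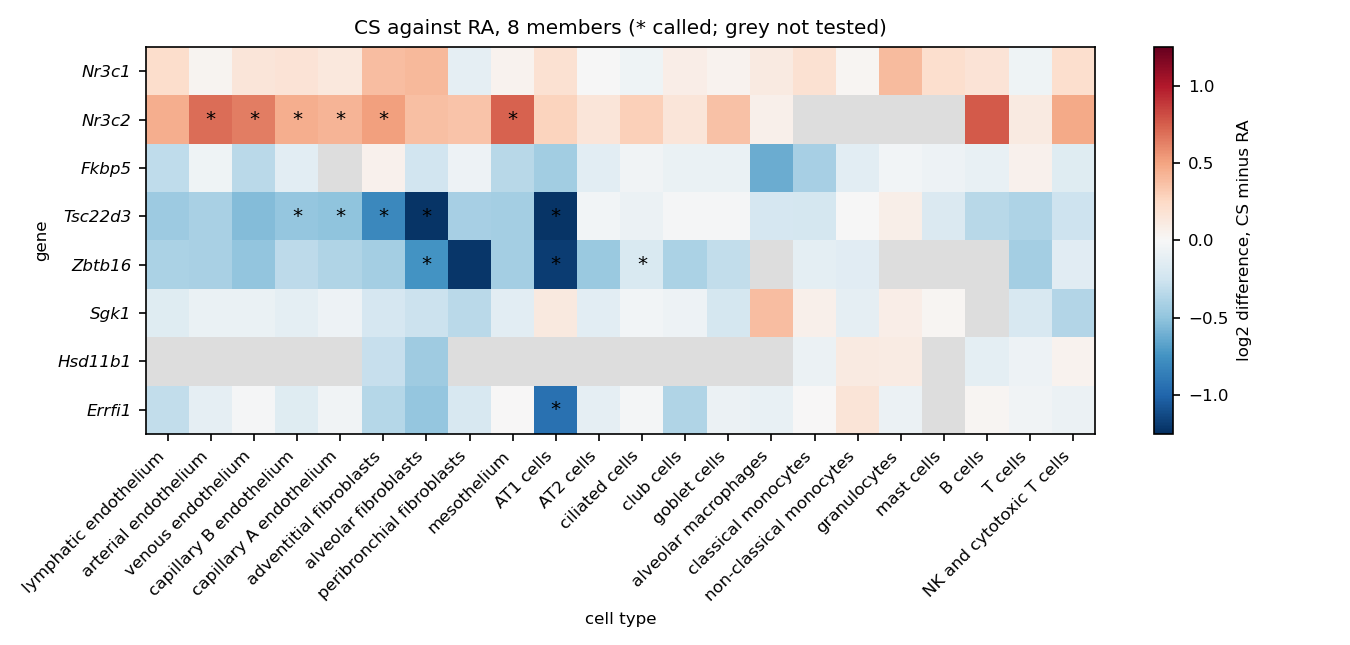
Log2 difference of each member (rows) in each of the 22 cell types (columns), CS minus RA on the scale of log2 of the level plus 1, red where CS was higher and blue where it was lower, with an asterisk in the 15 called pairs and grey for pairs that were not tested. The row of Nr3c2 is red throughout and the row of Zbtb16 blue throughout, and the darkest blue is in AT1 cells, alveolar fibroblasts and peribronchial fibroblasts.

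Over all members, 15 of 151 pairs were called, 6 higher (all Nr3c2) and 9 lower (Tsc22d3, Zbtb16 and Errfi1), where 1.23% of all tests were called in either direction. Leaving out 1 mouse gave 7 to 15 calls, with 7 without C2, D2 or D5, 9 without C5 or F3 and 8 without M3. With lane as a term, which compares CS and RA mice of the same lane where both entered a type, 8 pairs were called, 7 of them among the 15. Without the gene filter 3 pairs were called, Tsc22d3, Zbtb16 and Errfi1 in AT1 cells. Over all genes, calls fell from 2118 to 663 with lane as a term and to 118 without the filter.

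Where the members are expressed was not part of their choice, so the order of their levels over the cell types was tested within mice. Each pair of neighbouring types in the order of the mean over the mice was compared by an exact two-sided sign-flip test, for which 8 mice allow no p under 0.0078, and the values were adjusted over the 21 neighbours of a gene. A step seen in all 8 mice is then adjusted to 0.16 if it is the only one of a gene, so that such a step could not pass on its own. No neighbours differed at an adjusted p under 0.05 for any member, and 2 to 5 of the 21 did at an unadjusted p under 0.05. The order is given with its spread, and the count of neighbours that passed says nothing of how large a step is.

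Nr3c1 was highest in T cells, at 12.2 ± 2.47 (SD, n = 8), and above each of the other 21 types in every mouse. NK and cytotoxic T cells came next at 6.17 ± 2.11 (n = 7) and capillary A endothelium followed at 2.90 ± 0.490, while club, ciliated and goblet cells were lowest, goblet cells at 0.318 ± 0.114. The T cells held 10.0, 11.0, 14.1 and 12.4 in CS mice and 16.0, 9.34, 14.7 and 10.2 in RA mice, so the groups were interleaved. Nr3c2 had another order. It was highest in lymphatic endothelium, at 6.15 ± 1.54 (SD, n = 8), above the other 21 types in every mouse, then in arterial endothelium at 3.12 ± 1.16 and in club cells at 2.999 ± 0.708, and it was lowest in classical monocytes, at 0.0179 ± 0.0188. In lymphatic endothelium the CS mice held 7.53, 5.51, 7.86 and 8.23 and the RA mice 3.95, 5.75, 4.80 and 5.58.

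Hsd11b1 had the steepest order, with a mean in alveolar fibroblasts of 18.0 ± 5.33 (SD, n = 8) that was 1916 times that of goblet cells, a ratio that rests on a handful of transcripts in the lowest type. Adventitial fibroblasts followed at 3.36 ± 1.23 and granulocytes at 3.31 ± 0.598. Alveolar fibroblasts were above adventitial fibroblasts in 8 of 8 mice (adjusted p = 0.055, exact sign-flip test). Before adjustment this step had the smallest p that the test allows with 8 mice, so its adjusted p says nothing of its size. Sgk1 was highest in alveolar macrophages, at 7.86 ± 1.98, above the other 21 types in every mouse, and next in venous endothelium at 3.34 ± 0.921.

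Tsc22d3 was the most even of the 8, with its highest mean, in B cells at 4.14 ± 0.792 (SD, n = 8), 12.8 times the lowest, in goblet cells. Fkbp5 was highest in lymphatic endothelium, at 2.08 ± 0.712, and lowest in capillary A endothelium, at 0.0752 ± 0.143. Zbtb16 was highest in capillary B endothelium, at 8.98 ± 2.57, and alveolar fibroblasts, at 8.16 ± 2.65, came next. Errfi1 was highest in peribronchial fibroblasts, at 10.6 ± 4.34 (n = 6), followed by AT2 cells at 8.70 ± 1.75. In RA mice alone the highest type was the same for 6 of the 8 genes, and for Tsc22d3 and Zbtb16 it was alveolar fibroblasts.

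**Figure D4:**
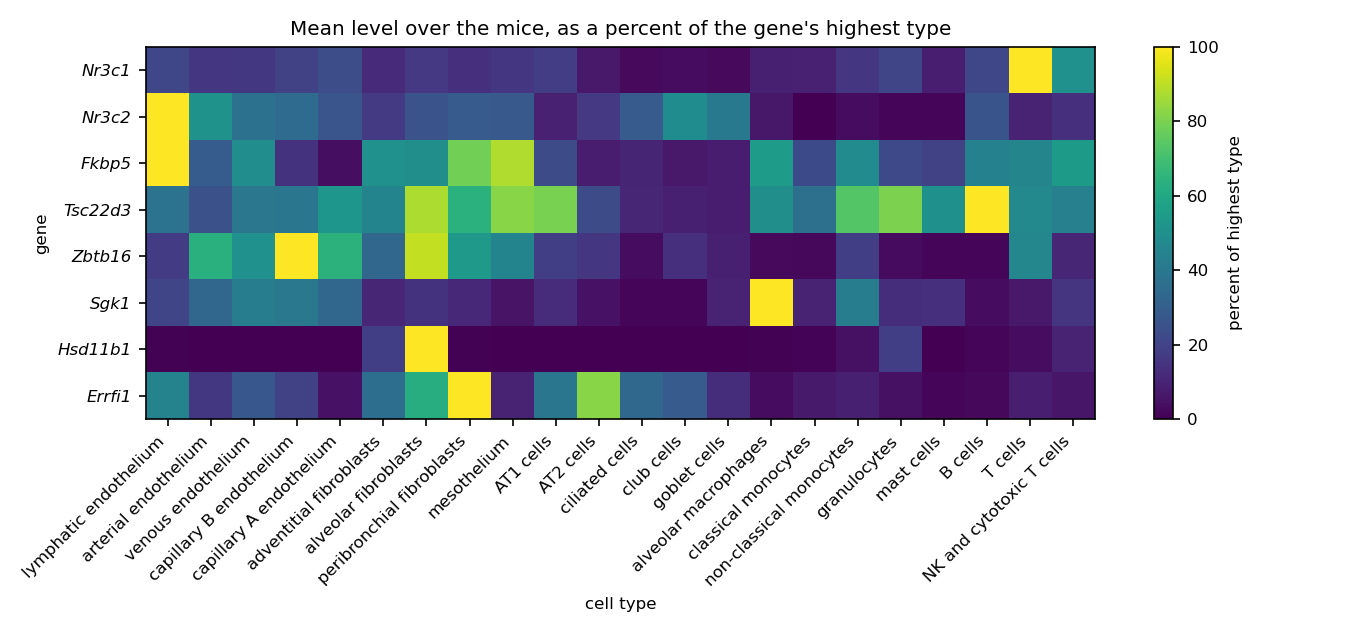
Mean level of each member (rows) over the mice in each of the 22 cell types (columns), as a percent of the level in the gene's highest type. Hsd11b1 stands out in alveolar fibroblasts, Sgk1 in alveolar macrophages and Nr3c1 in T cells, while Tsc22d3 is spread over many types.

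The genes with the most similar pattern over the 22 types were listed for each member by Pearson's r of the log2 mean level plus 1, over 9785 genes. The types share the same 8 libraries and differ in depth, so these values are descriptions. Sgk1 was closest to Ptpn12 (r = 0.90), Sdc3 and Rab5c, all highest in alveolar macrophages. Hsd11b1 was closest to Gm4956 (0.89), Itga8 and Tcf21, all highest in alveolar fibroblasts, and Nr3c1 to Rmnd5a (0.87), Rnf138 and Ss18, all highest in T cells. Errfi1 was closest to Spry1 (0.93), Ube2e2 and Itga9, Nr3c2 to Ptprk (0.85), Gphn and Tcf7l1, Zbtb16 to Cyp2d22 (0.85), Syde1 and Srpr, Fkbp5 to Tspan5 (0.83), Ahdc1 and Utp4, and Tsc22d3 to Tprgl (0.76), Ddit3 and Derl1. Among the members themselves r ran from -0.39, for Nr3c2 with Tsc22d3, to 0.52, for Fkbp5 with Tsc22d3.

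Other genes of the pathway were tested with limma in the same fits and adjusted over all genes of a type. The lists were chosen with earlier results of these data known, so their counts are not independent evidence of a direction. Over all lists 99 tests were called, which fell to 36, 49 and 35 without CS mouse C2, D2 or D5, to 55 and 65 without RA mouse F3 or M3, to 55 with lane as a term and to 11 without the gene filter. Of 34 further genes known to be induced by glucocorticoids, 33 were tested. Of their 486 tests 6 were called higher (1.23%) and 15 lower (3.09%), with a median difference of -0.04. Over all tests of all genes these shares were 0.712% and 0.518%. Of the 15 lower calls 5 were in capillary B endothelium, among 18 tests, where 3.97% of all genes were called lower. Cdkn1a, the cell cycle inhibitor p21, fell in capillary B endothelium, from 9.23 ± 5.42 to 3.01 ± 0.513, and in arterial endothelium, from 6.05 ± 2.44 to 2.76 ± 0.520, and rose in goblet cells, from 0.218 ± 0.130 to 0.782 ± 0.202 (RA to CS, SD, n = 4 each, adjusted p by limma 0.035, 0.047 and 0.034). Nfkbia, an inhibitor of NF-kappaB, fell in alveolar macrophages, from 17.5 ± 3.63 to 6.77 ± 0.894, and in capillary B endothelium. Cebpd fell in alveolar fibroblasts and capillary B endothelium, the phosphatase gene Dusp1 in AT1 cells and capillary B endothelium, and the mTOR inhibitor gene Ddit4 in venous and capillary B endothelium.

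Among the other induced genes both directions were called in AT1 cells. There, where Tsc22d3 and Zbtb16 had their largest called differences, the metallothionein genes Mt1 and Mt2 were called higher, Mt1 from 0.112 ± 0.0541 to 2.94 ± 0.204 (SD, n = 4 each, adjusted p = 1.56e-10 by limma), and Klf9 and Dusp1 lower. Metallothioneins are induced by metals as well as by glucocorticoids. Mt1, Mt2 and Klf9 were picked out after their values were seen. The summed level of the 34 genes in AT1 cells was 32.2 to 34.2 in CS mice and 32.2 to 49.0 in RA mice, which overlapped, and it was lower in all CS than in all RA mice in 6 of 22 types, 4 of them endothelial.

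Among the chaperones, nuclear transport genes and coregulators of the receptors, the lower calls fell on chaperone and co-chaperone genes alone. Of 422 tests of 20 genes, 1 was called higher (0.237%) and 33 lower (7.82%), with a median difference of -0.03, where 0.712% and 0.518% of all tests were. The 33 lower calls were of 8 genes, all chaperones or co-chaperones, and no coregulator or nuclear transport gene was called lower. Fkbp4, which encodes the receptor-transporting co-chaperone FKBP52, fell in 8 of 21 types and had a lower CS mean in all 21. In ciliated cells it went from 3.91 ± 0.534 to 2.07 ± 0.186 (RA to CS, SD, n = 4 each, adjusted p = 0.0037 by limma). Hspa8, a constitutive heat shock protein gene, fell in 7 of 22 types, Stip1 in 6 of 21, and Hsp90ab1 and Hsp90aa1, the receptor-holding chaperones, in 5 and 3 of 22. In ciliated cells Hsp90aa1 fell from 51.6 ± 11.4 to 21.4 ± 3.18. The 1 coregulator gene called higher was Ncoa1, in capillary B endothelium, named after its value was seen.

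**Figure D5:**
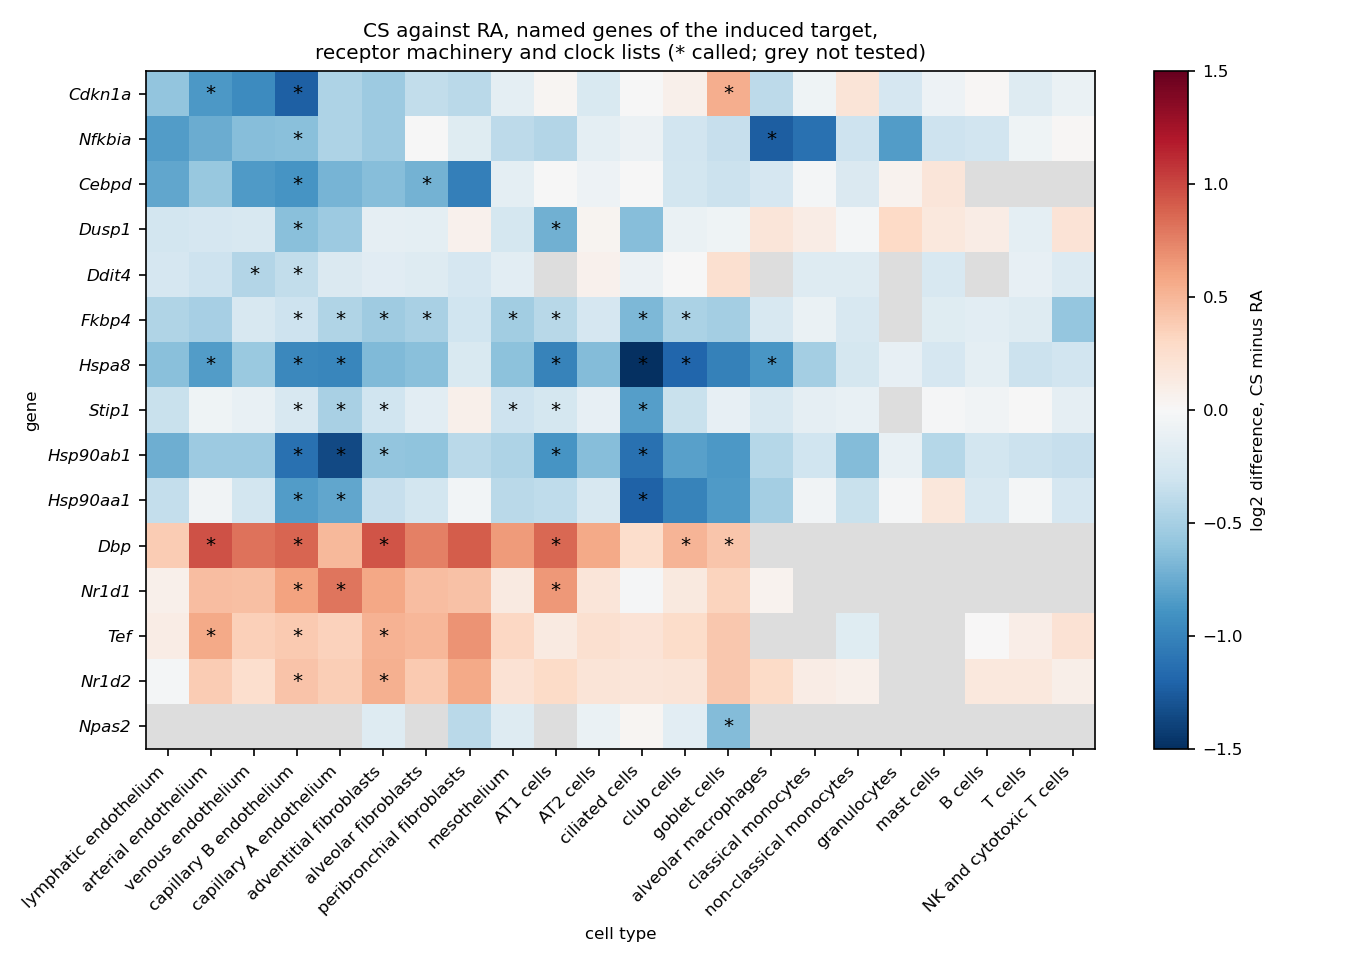
Log2 difference, CS minus RA on the scale of log2 of the level plus 1, of the named genes of the induced target, receptor machinery and clock lists (rows) in each of the 22 cell types (columns), red where CS was higher and blue where it was lower, with an asterisk where limma called the gene and grey where it was not tested. The chaperone genes from Fkbp4 to Hsp90aa1 are blue in nearly every type and the clock genes from Dbp to Nr1d2 are red in most.

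Several of these chaperone genes also respond to heat and to tissue digestion, and genes of the digestion response were called lower too. Of 260 tests of 12 such genes, 0 were called higher and 11 lower (4.23%) by limma (4 and 64 at an unadjusted p under 0.05), with a median of -0.15. Btg2 fell in AT1 cells, from 4.61 ± 0.773 to 1.74 ± 0.529, and in ciliated cells, and Atf3 fell in capillary B endothelium and adventitial fibroblasts. Egr1 fell in alveolar macrophages, Fos in ciliated cells and Junb in capillary B endothelium. Yet the CS mean of Egr1 was higher in 16 of the 22 types in which it was tested, with a median difference of 0.105. Their summed level overlapped between the groups in AT1 cells, 23.7 to 33.1 in CS mice and 28.2 to 35.8 in RA mice, and in alveolar fibroblasts. It was lower in all CS than in all RA mice in capillary B endothelium, at 57.5 to 89.7 against 112 to 157.4, where Nr3c2 was called higher and Tsc22d3 lower, and in venous endothelium, at 110.9 to 143.9 against 162.6 to 219.9, where Nr3c2 was called. The same held in alveolar macrophages and T cells. An overlap of this sum does not show that single genes of the list were alike. At an unadjusted p under 0.05 by limma, 1 of the 12 genes was higher and 3 were lower in AT1 cells. These counts were 0 and 2 in alveolar fibroblasts. Whether the digestion response has a part in the values of Tsc22d3, Zbtb16, the further induced genes or the chaperones was not tested.

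Clock genes, which follow the time of day as circulating corticosteroid does, were also called in some types. Of 213 tests of 14 clock genes, 17 were called higher (7.98%) and 3 lower (1.41%), where 0.712% and 0.518% of all tests were, with a median difference of 0.08. Dbp was called higher in 6 of 14 types and had a higher CS mean in all 14. In AT1 cells it rose from 0.217 ± 0.154 to 1.22 ± 0.380 (SD, n = 4 each, adjusted p = 0.00076 by limma). Nr1d1 and Tef were called higher in 3 types each and Nr1d2 in 2, while Npas2 was lower in goblet cells. The summed clock level did not overlap, with CS above, in AT1 cells, at 9.42 to 11.7 in CS mice and 7.16 to 8.22 in RA mice, nor in 8 other types, among them alveolar and adventitial fibroblasts and arterial and both capillary endothelia. It overlapped in venous endothelium and mesothelium, where Nr3c2 was called, and in ciliated cells. The sum and the median pool clock genes that were higher with others that were lower. An overlap of the sum therefore does not show that single clock genes were alike. At an unadjusted p under 0.05 by limma, 6 clock genes were higher and 2 lower in venous endothelium. These counts were 3 and 0 in mesothelium and 3 and 2 in ciliated cells. The part of the hour of tissue collection in the values of the members was not tested.

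Steroid conversion and transport genes gave little. Of 43 tests of the 6 genes measured well enough, 1 was called higher (2.33%) and 0 lower (5 and 2 at an unadjusted p under 0.05), the drug and steroid exporter Abcb1a in capillary B endothelium, from 0.912 ± 0.1005 to 1.44 ± 0.194 (adjusted p = 0.026 by limma). Of 9 sodium transport genes downstream of the mineralocorticoid receptor, with 128 tests, 0 were called higher and 1 lower, 0.781% (15 and 6 at an unadjusted p under 0.05), Slc9a3r1 in capillary B endothelium. Over all tests 0.712% were called higher and 0.518% lower, and in capillary B endothelium 6.28% and 3.97% of all genes were. Nothing is read from these single calls.

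Among 12 inflammatory genes that glucocorticoids repress, 1 of 91 tests was called higher (1.1%) and 5 lower (5.49%). Over all tests of all genes these shares were 0.712% and 0.518%. At an unadjusted p under 0.05 by limma, 8 tests were higher and 29 lower. Of the 5 lower calls, 4 were in alveolar macrophages. In alveolar macrophages, Cxcl2 fell from 48.6 ± 7.57 to 16.8 ± 3.35, and Tnf from 10.1 ± 2.15 to 4.12 ± 1.10 (SD, n = 4 each, adjusted p by limma 0.00015 and 0.0068), and Cxcl1 and Icam1 were lower too. Icam1 was lower in capillary B endothelium and higher in ciliated cells. The summed level of the 12 genes lay lower in all CS than in all RA mice in 3 types, alveolar macrophages, capillary B endothelium and classical monocytes. It lay higher in 2, ciliated cells and peribronchial fibroblasts. Of 28 tests of the other steroid receptor genes, 2 were called higher, 7.14%, and 0 lower (11 and 0 at an unadjusted p under 0.05), the estrogen receptor gene Esr1 in arterial endothelium, from 0.0302 ± 0.01004 to 0.284 ± 0.105, and the progesterone receptor gene Pgr in capillary B endothelium. RNAs kept in the nucleus were lower where called, Neat1 in arterial and capillary B endothelium and Malat1 in ciliated cells, 3 of 68 tests (4.41%), with 0 higher by limma (1 higher and 17 lower at an unadjusted p under 0.05). The summed level of these RNAs was lower in all CS than in all RA mice in AT1 cells, as given above, in ciliated cells, at 97.4 to 111.1 against 122.8 to 147.8, and in arterial endothelium, at 262.1 to 283.6 against 293.6 to 355.3, and overlapped in the other 19 types. Its part in the values of the members was not tested.

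The positions of the other members, from the GENCODE annotation of GRCm38, put Fkbp5 at chr17:28399094-28517527 on the minus strand (118.4 kb), Tsc22d3 at chrX:140539528-140600659 on the minus strand (61.1 kb), Zbtb16 at chr9:48654297-48836222 on the minus strand, Sgk1 at chr10:21882184-21999903 on the plus strand (117.7 kb), Hsd11b1 at chr1:193221634-193264075 on the minus strand (42.4 kb) and Errfi1 at chr4:150853919-150868892 on the plus strand (15.0 kb). Nr3c1, on chromosome 18, spans 108.9 kb. The called members lie on 4 chromosomes, and all 8 are annotated as protein coding.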

How the data were processed

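Lung cells of 8 mice were sequenced with 10x Genomics 3' chemistry (v3). Per the labels and methods, the authors aligned reads with STAR 2.7.3a (STARsolo) to GRCm38.p6, summed spliced and unspliced UMIs and removed free RNA with SoupX. The deposited matrix is called normalized but holds these estimated counts unscaled: 1.28% of its 120265417 values are whole within 1e-06. The authors also deposited cell types, used as given, and the percent of mitochondrial transcripts per cell, which exceeded 5% in 1628 of 41106 cells. Multiplets and cycling cells, as annotated, were left out.

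Each cell was brought to 10000 counts in all and levels were averaged per type and mouse, since cells are not replicates. log2(mean + 1) was fitted with limma 3.58.1 (R 4.3.3, trended empirical Bayes), with group as the only term, after a test on simulated data. A fold is understated for low genes by the pseudocount of 1. The spread between mice holds counting error too. Mice were named by replicate in accession order, which pairs no mice. Each lane held 1 CS and 1 RA mouse, but the main fit left lane out, and lane was a term in 1 alternative. Other alternatives were another pseudocount, gene filter, cell minimum, averaging or scaling, labelled sex as a term, and leaving out each mouse. The level order used exact sign-flip tests in NumPy 2.4.6. Named were all 8 members in the types where they were called, in their highest type and in AT2 cells, up to 5 genes per list (most types called, then largest difference) and 3 genes of similar pattern per member. Members in types near the threshold, with no overlap or with a large difference, and a few list genes marked in the text, were added after their values were seen. The members, lists and tests were chosen with earlier results of these data known.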

Additional observations from a re-analysis of the deposited data

Results flagged for a closer look

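Dixon's criterion was applied to groups of 4 mice. Of the values of members in types where they were called, in their highest type and in AT2 cells, 5 stood apart from the other mice of their group. Values named above in other types are not in this list and count only in the total below. Tsc22d3 in AT1 cells was at 8.02 in RA mouse F1, with the others at 3.99 to 4.39, and Hsd11b1 in alveolar fibroblasts was at 30.4 in F1, with the others at 16.8 to 18.9. Among CS mice, Hsd11b1 in alveolar fibroblasts was at 16.2 in D2, Nr3c2 in arterial endothelium at 5.01 in C2 and Nr3c2 in AT2 cells at 1.201 in D2. Over all 262 groups of 4 looked at for the 8 members, 23 held such a value, 11 of them in F1, and chance flags about 5% of groups. The cause was not tested.

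Sgk1, called in no type, did not overlap between CS and RA mice in 3 of 21 types, with CS above in 1 and below in 2, where 6.01% and 4.67% of all tests did, counts near that background from which nothing is read about Sgk1. The log2 difference was 0.39 in alveolar macrophages, -0.059 in club cells and -0.20 in T cells. The difference between these cell types was not tested.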

How the results depend on the processing

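Without a gene filter, which tests every gene with a count, member calls fell from 15 to 3, Nr3c2 calls from 6 to 0 (all 6 with a higher CS mean) and calls of the other pathway genes from 99 to 11. With lane as a term they were 8, 2 and 55, in fits with fewer degrees of freedom. Calls over all genes fell from 2118 to 118 without the filter and to 663 with lane as a term. Leaving out each mouse gave 7 to 15 member calls, 1 to 6 Nr3c2 calls and 35 to 92 calls of the other pathway genes, the last with 36, 49 and 35 without C2, D2 and D5 and 55 and 65 without F3 and M3. Under a pseudocount of 0.1, genes in 25% of cells, labelled sex as a term, summed counts, median scaling or at least 50 cells, the counts were 14 to 19, 5 to 7 and 82 to 112, all within 1.5 times of the values reported (the sex labels of the CS libraries went against Xist and Ddx3y, so that term says nothing of sex), and no called difference of a member changed sign under any alternative in which it was fitted. Median scaling moved the differences by -0.03 to 0.00. The highest cell type stayed the same for 6 of 8 members in RA mice alone and for 8 of 8 with summed counts and without each mouse, the alternatives run for it. Replicate numbers were given in accession order and pair no mice. The fit with lane as a term stands for a paired fit only where each lane kept 1 CS and 1 RA mouse. Mice with too few cells were left out, C2 in mesothelium and F1 in NK and cytotoxic T cells, non-classical monocytes and mast cells. In peribronchial fibroblasts C2 and M3 were left out. A mouse left alone in its lane does not bear on the difference in that fit. Whether depth or the number of cells bears on the number of calls in a type was not tested. Over all members and alternatives, 95 of 2344 fitted differences changed sign, 21 of 150 without F1, none of them of a called pair. They include 3 of Nr3c2, 2 without F1 and 1 with lane as a term. Among members in the types where they were called, in their highest type and in AT2 cells, 12 differences changed sign. All 12 were in Nr3c1 in AT2 and T cells and Errfi1 in AT2 cells and peribronchial fibroblasts. The last went from -0.20 to 0.21 with lane as a term, where only D2 with F3 and C5 with M1 shared a lane.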
